A study of Mus musculus with 4 samples.

Results

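Exon-labelled peaks that rest on retained-intron transcripts made up a class of 956 m6A peaks in mouse splenic natural killer (NK) cells, and the stronger peak of Ptpn11, the gene of the tyrosine phosphatase SHP-2, belonged to it. A peak was a member when the list labelled it exon, when the transcript named in the label had the type retained_intron in the GENCODE annotation of mouse build GRCm38, and when that transcript belonged to the gene the peak was assigned to. The members were 16.4% of 5848 exon-labelled peaks (95% Wilson interval 15.4 to 17.3) and 4.61% of 20727 distinct peaks (4.34 to 4.91). They lay in 806 of 12351 genes with a peak (6.53%). A further 32 exon-labelled peaks rested on a retained-intron transcript of a gene other than the assigned one and were not counted.

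The peaks came from methylated RNA immunoprecipitation sequencing (MeRIP-seq) of wild-type C57BL/6 NK cells. The 4 libraries were 2 m6A immunoprecipitates, made from fragmented poly(A) RNA with an m6A antibody, and 2 input RNA libraries of the same fragmented RNA without the antibody. All 4 therefore shared genotype and strain, and per the methods of the study the cells had been expanded in the mice by an IL-15 expression plasmid before they were sorted from spleen. The list gave 1 fold enrichment (immunoprecipitate over input) and 1 log10 peak-calling p-value for each peak over all libraries, so there is no error between replicates, the depth is unknown, and the values below describe this list without a test. Of 10 NK cell marker genes 10 carried a peak, as did 3 of 5 T cell markers (not Cd4 or Cd8a), 4 of 4 macrophage and neutrophil markers and 2 of 2 erythroid markers. None of these markers had a retained-intron peak, but only 8 of them had both a peak and an annotated retained-intron transcript, and over all such genes 13.4% had a member. The list does not give the level of a transcript.

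N6-methyladenosine (m6A) is placed on nascent RNA by the METTL3 and METTL14 methyltransferase, mostly within the motif DRACH, in which R is a purine, D any base except C and H any base except G. It is best known near stop codons and in long exons, while introns are normally removed soon after transcription. A retained intron stays in a spliced, polyadenylated RNA. Such RNA is often held in the nucleus or degraded, and in lymphocytes intron retention is a known layer of control over genes of splicing and activation. In GENCODE the retained_intron type marks non-coding transcript models that hold sequence which is intronic in other transcripts of the locus. Poly(A) selection can also recover partly spliced RNA, and a peak list does not tell it from RNA with a retained intron.

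The Ptpn11 peak lay at chr5:121153187-121154026 on the minus strand (GRCm38, gene ENSMUSG00000043733). Its span of 840 nt sat wholly in intron 7 of 15 of the longest coding transcript, 403 nt after the donor site and 632 nt before the acceptor site, and covered 44.8% of this intron of 1875 nt. The transcript named in the label (ENSMUST00000148407) had 15 exons, and its exon 7, of 2052 nt, filled the whole intron together with the coding exons on either side. Its fold enrichment was 26.6 (log10 p -5.48), a pair of values that recurred in other members, among them Acox3, Fam49a and Ndufs1. The only other Ptpn11 peak, in the 3' UTR, had a value of 1.44 (log10 p -4.08) over 151 nt. The intronic peak was thus 18.5 times higher on the fold scale, but it was also longer, and fold rose with length across members. Above 800 nt the median fold was 17.1 in members that held no exon of a coding transcript and 20.9 over all peaks.

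**Figure D1:**
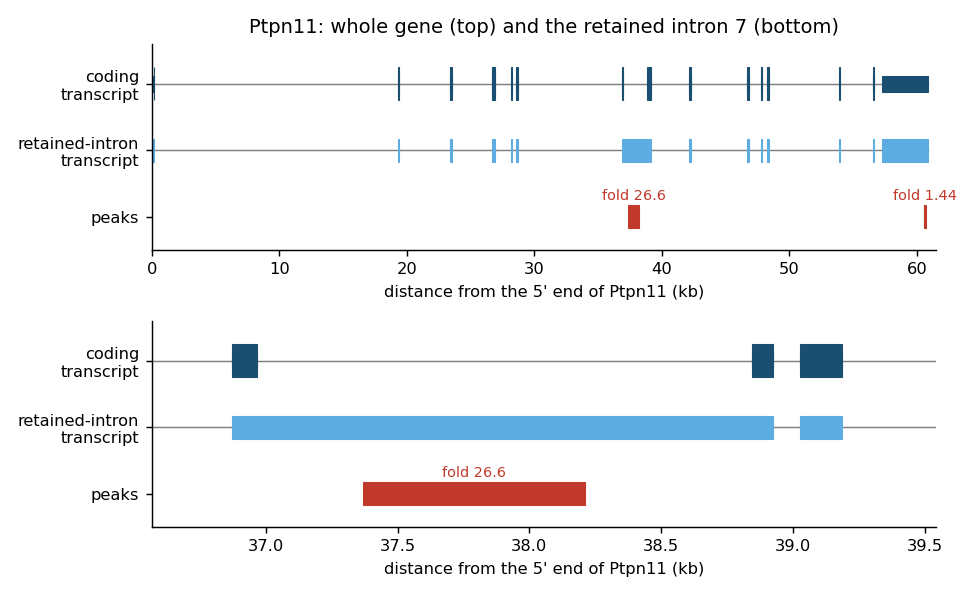
Map of Ptpn11 in the direction of transcription, with distance from the 5' end in kb, for the whole gene (top) and around intron 7 (bottom). Dark boxes are exons of the longest coding transcript (tall where coding), light boxes exons of the retained-intron transcript and red boxes the 2 peaks with their fold enrichment. The peak of fold 26.6 sits between coding exons and within the exon that fills intron 7.

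The following stretches come from peaks of members without a coding base. The list gives 1 fold for a whole peak, so it does not show which of its bases the antibody enriched. Each is the 60-nt window of the peak with the most DRACH matches, read from the RefSeq GRCm38.p6 genome on the strand of the gene, with the matches in capitals and overlapping matches run together. Ptpn11 (chr5:121153691-121153750, minus) is shown because the class was defined around it. Itpr1 (chr6:108511211-108511270, plus) and Rbm5 (chr9:107747747-107747806, minus) were among the 5 members with the lowest p-value, Brpf1 (chr6:113321005-113321064, plus) among the 5 with the highest fold, and Gsk3b (chr16:38209246-38209305, plus) had the lowest p-value in the list of IL-15 and SHP-2 signalling genes.

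Ptpn11: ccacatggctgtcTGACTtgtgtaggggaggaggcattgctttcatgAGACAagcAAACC

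Itpr1: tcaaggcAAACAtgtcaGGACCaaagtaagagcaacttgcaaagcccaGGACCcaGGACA

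Rbm5: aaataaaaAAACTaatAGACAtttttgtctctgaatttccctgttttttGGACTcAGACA

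Brpf1: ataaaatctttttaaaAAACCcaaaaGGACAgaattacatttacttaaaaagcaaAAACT

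Gsk3b: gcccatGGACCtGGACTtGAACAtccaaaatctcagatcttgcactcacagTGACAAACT

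The windows held from 3 matches (Ptpn11 and Brpf1) to 5 (Gsk3b). GGAC, the first 4 letters of the most typical site, occurred in all windows except that of Ptpn11. They were chosen for their matches and are not typical of whole peaks. The whole Ptpn11 peak held 3 GGAC and 14 DRACH matches, or 16.7 DRACH per kb, against 19.4 over all members.

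The introns around these peaks had the ordinary boundary letters. The 30 bases at each end of the intron are given for Ptpn11 intron 7, where the peak is central, and for Brpf1 intron 10, where it ends 22 nt before the acceptor. Capitals mark the GT at the start and the AG at the end of the intron, and the 10 bases beyond them are coding exon.

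Ptpn11 donor (chr5:121154410-121154439): atcctgccctGTgagtatctgtctcctgcc

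Ptpn11 acceptor (chr5:121152545-121152574): tgtcatctctttctcctcAGttgatcatac

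Brpf1 donor (chr6:113320572-113320601): accggaccagGTaccattcctacagatggg

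Brpf1 acceptor (chr6:113321709-113321738): ttccaattatctttccacAGcacaactccc

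Most members were intronic with respect to the coding isoforms of their genes. The class rule favours this, because a retained-intron transcript holds sequence that is intronic in other transcripts. Of the 956 members, 939 belonged to protein-coding genes, and 863 (90.3%, 95% Wilson interval 88.2 to 92.0) held 0 nt of an exon of any protein-coding transcript of their gene. The other 93 (9.73%) held some coding-transcript exon as well. Relative to the longest coding transcript, available for 940 members, 811 (86.3%) lay wholly inside an intron, 121 of them in the first intron and 63 in the last. A splice site of that transcript was covered by 78 members (8.30%). RefSeq, an independent set of gene models, had no exon under 782 members (81.8%), a curated mRNA exon under 103, only a predicted mRNA exon under 36, only a non-coding exon under 13 and only another gene's exon under 22.

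For the 811 peaks inside an intron, the median intron length, counted once per peak, was 2894 nt. These peaks leaned towards the 5' end of the intron. The median distance was 522 nt from the donor and 981 nt from the acceptor, the median centre stood at 37.6% of the intron, and 516 peaks (63.6%, interval 60.3 to 66.9) were nearer to the donor. The label needs an annotated exon under the peak, and the position followed the shape of that exon. In 389 members the named exon ran from a coding-transcript exon into the following intron, and 363 of these peaks inside an intron had a median centre at 19.3%. In 127 members the exon ran from an intron into the following coding-transcript exon, and 119 peaks had a median centre at 81.6%. In 271 members the exon held a whole intron, as at Ptpn11, and 235 peaks had a median centre at 45.6%. Where the exon filled the very intron in which the peak lay (149 peaks), the median distances were 268 nt from the donor and 291 nt from the acceptor. With an exon that filled the intron, 81 of 149 peaks (54.4%) were nearer to the donor.

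**Figure D2:**
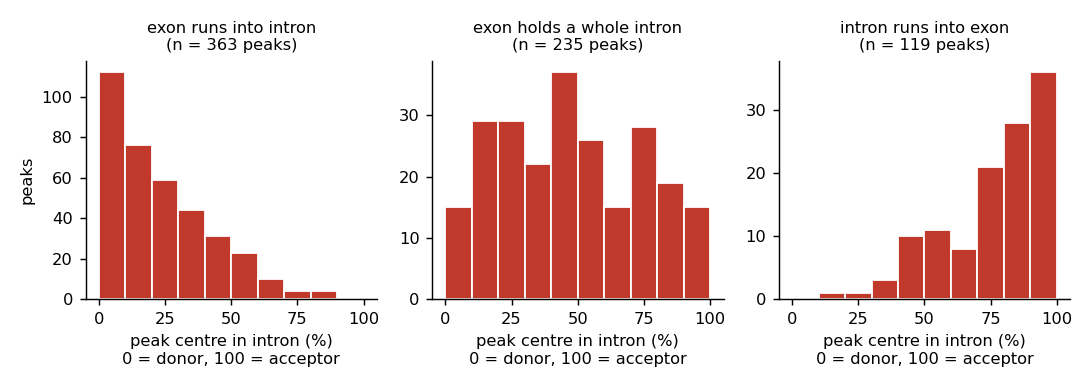
Number of peaks by the position of their centre in the intron of the longest coding transcript, in percent from donor (0) to acceptor (100), for the 3 largest shapes of the named exon. Peaks crowd towards the donor where the exon runs into the intron (n = 363), spread across it where the exon holds a whole intron (n = 235) and crowd towards the acceptor where the intron runs into the exon (n = 119).

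The remaining shapes were smaller. In 74 members the named exon held a coding-transcript exon with part of the intron on each side, and the median fold enrichment there was 11.4. In 37 the named exon was coding-transcript exon throughout (median fold 3.03), in 23 it lay apart from every coding-transcript exon (7.59), and in 19 it reached beyond a coding transcript's end (3.79). The median was 9.48 where an exon ran into an intron, 6.64 where it held a whole intron and 5.69 where an intron ran into an exon. The shapes also differed in peak length. The median exonic length was 525.5 nt in the 74, 301 nt where an exon ran into an intron and 241 nt where it held a whole intron. It was 151 nt where an intron ran into an exon, in the 23 and in the 19, and 121 nt in the 37. Whether length accounts for the folds was not tested.

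A member rarely covered its named transcript. It covered a median of 11.5% of the transcript's length, and 2 members covered at least 90%. The named transcript had 1 exon in 270 members, and among the 686 others the peak lay in its last exon in 404 (58.9%). The annotated 3' end of the transcript was inside 74 members. Their median fold enrichment was 13.3, against 7.43 in the 882 others, and the polyadenylation signal AATAAA, searched on the strand of the gene, occurred in 48.6% of them against 20.7% of the others. These 74 were also longer, with a median of 525 nt against 241 nt, and over all peaks the share with AATAAA was 29.8%.

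Fold enrichment was high for this list and significance low. The median fold of the members was 7.59 (interquartile range 3.79 to 13.3, extremes 1.1 and 444), against 2.66 over all peaks and 2.26 in 2051 exon-labelled peaks whose named transcript is a protein-coding transcript of the assigned gene. In 353 peaks named for a processed transcript, another non-coding type of coding loci, it was 5.06. A fold enrichment of at least 5, a cut-off the study used, was reached by 603 members (63.1%, interval 59.97 to 66.1), against 34.6% of all peaks and 27.6% of the coding-exon peaks. A peak-calling p-value under 0.001 was reached by 358 members (37.4%, interval 34.4 to 40.6), against 61.5% of all peaks and 53.0% of the coding-exon peaks. Both were met by 264 members (27.6%, interval 24.9 to 30.5), against 19.0% of all peaks. In the processed-transcript peaks the shares for fold, p-value and both were 50.7%, 45.3% and 23.8%. At the high end, 24 members (2.51%) had a fold of at least 100, close to the 2.05% of all peaks. At the low end, 94 members (9.83%) had a fold under 2, against 36.1% of all peaks.

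Members without and with coding-transcript exon had different values. The 863 without it had a median fold of 7.59, and 65.5% reached 5 while 35.9% had a p-value under 0.001. The 93 members that held coding-transcript exon had a median of 3.48, with 40.9% at 5 or more and 51.6% with a p-value under 0.001.

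**Figure D3:**
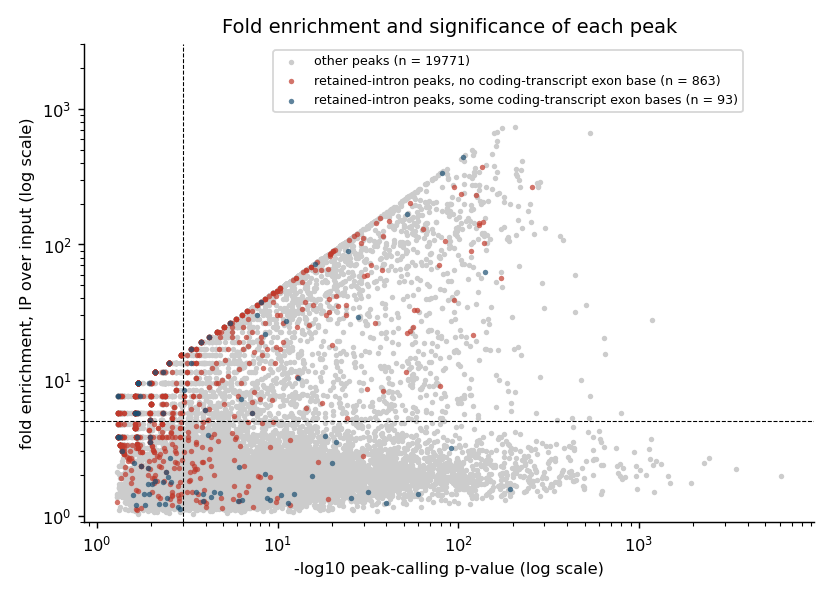
Fold enrichment against -log10 peak-calling p-value, both on log scales, with 1 point per peak. Grey points are the 19771 other peaks, red the 863 retained-intron peaks without a coding-transcript exon base and blue the 93 with one. Dashed lines mark a fold of 5 and a p-value of 0.001. Of the red points, 565 lie at or above a fold of 5, and 243 of these also have a p-value under 0.001.

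**Figure D4:**
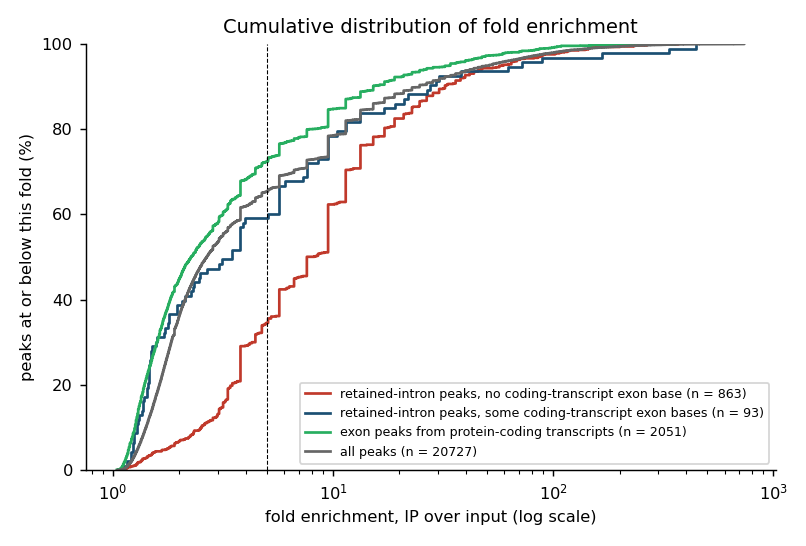
Percent of peaks at or below each fold enrichment (log scale) for 4 sets, with a dashed line at a fold of 5. The median is 7.59 for retained-intron peaks without a coding-transcript exon base, 3.48 for those with one, 2.26 for exon peaks from protein-coding transcripts and 2.66 for all peaks.

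Fold enrichment moved with the length of a peak and repeated the same few values. Across members the Spearman correlation of fold with exonic length was 0.679 (n = 956), beside 0.532 in coding-exon peaks and 0.478 over all peaks. The points share libraries, and no p-value is given. In the shortest band, up to 100 exonic nt, the median fold was 3.24 in 169 members without coding-transcript exon and 1.64 in 574 coding-exon peaks. Between 100 and 200 nt the medians were 5.06 and 1.90, between 200 and 400 nt 8.38 and 3.30, and between 400 and 800 nt 13.3 and 9.48. Above 800 nt the order turned, with 17.1 in 171 members and 19.0 in 154 coding-exon peaks. The higher fold of the members was thus a property of peaks up to 800 nt. A p-value under 0.001 was rarer in these members than in coding-exon peaks in every band, also above 800 nt. Between 200 and 400 nt it was reached by 30.7% of members and 72.6% of coding-exon peaks.

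The 956 members had 235 distinct fold values, and 6 evenly spaced values (3.79, 5.69, 7.59, 9.48, 11.4 and 13.3) accounted for 396 of them (41.4%), against 17.9% of all peaks. The single pair of fold 9.48 and log10 p -1.69 occurred in 90 members (9.41%), 4.08% of all peaks and 3.41% of coding-exon peaks. Processed-transcript peaks had it about as often as members, at 9.35%. A median of 7.59 is itself 1 of these values. How many reads stand behind a repeated value is not in the list.

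Within a gene the retained-intron peak was usually the one with the highest fold. Another peak was present in 625 of the 806 genes, and the highest fold of the members exceeded the highest fold of the other peaks in 431 of them (69.0%), with a median ratio of 2.05 (interquartile range 0.832 to 5.21). Among members of at most 200 exonic nt, in 287 genes, the median ratio was 1.23. When coding-exon peaks were set against the other peaks of their genes in the same way, they were higher in 347 of 1178 genes (29.5%), with a median ratio of 0.722. Against 3' UTR peaks alone, members without coding-transcript exon were higher in 429 of 510 genes (84.1%), with a median ratio of 3.01. A p-value under 0.001 was reached by 73.5% of the 830 3' UTR peaks of all 806 genes, against 37.45% of the 956 members. The p-values were not compared gene by gene. In 181 genes the retained-intron class held every peak of the gene.

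**Figure D5:**
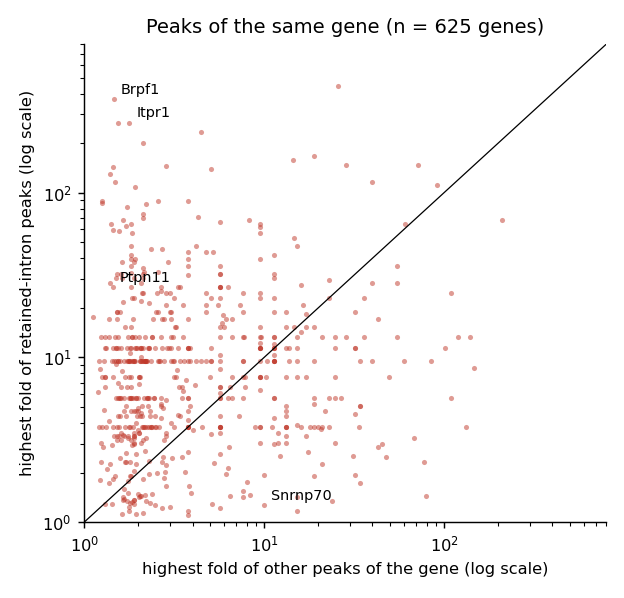
Highest fold enrichment of the retained-intron peaks of a gene against the highest fold of its other peaks, both on log scales, with 1 point for each of 625 genes and a line of equality. Points lie above the line in 431 genes, among them Ptpn11, Itpr1 and Brpf1, while Snrnp70 lies below it.

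The most significant members were a mixed group. Itpr1, the IP3-gated calcium channel of the endoplasmic reticulum, had the lowest p-value (log10 p -256) with a fold of 266, at chr6:108511020-108512879 in intron 55 of 61 of the coding transcript. Its 3' UTR peak had a fold of 1.78. Rps26, a protein of the small ribosomal subunit, followed with a log10 p of -193 but a fold of 1.59, and 168 of its 209 nt were coding-transcript exon, so it describes the spliced mRNA more than an intron. The peak of Tut7, a uridylyltransferase that tags RNA for decay, had a fold of 56.9 (log10 p -172) in intron 26 of 27, and 86.7% of its bases were soft-masked repeats. Cyfip1, a subunit of the WAVE actin regulator, had a fold of 62.2 (log10 p -141), with 249 of 569 exonic nt in coding-transcript exons. Rbm5, a regulator of splice site choice, had a fold of 102 (log10 p -139) in intron 17 of 24 and no other peak.

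At a p-value under 0.001 the highest fold was 444 in Htt, the huntingtin gene, where another member had 334. They lay at chr5:34813365-34817268 and chr5:34819023-34821621. Both Htt peaks held coding-transcript exon, 126 nt and 269 nt. Brpf1, a scaffold of histone acetyltransferase complexes, stood between them with 370, and its peak covered 83.8% of intron 10, of 1147 nt. Exoc1, a subunit of the exocyst tethering complex, had a fold of 266 (log10 p -94.8) in intron 10 of 19, as high as Itpr1. The 3' UTR peaks of Brpf1 and Exoc1 had folds of 1.46 and 1.55. These extremes are descriptions of the top of the list.

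Most genes had a single member (678 genes), 112 had 2, and 16 had more. Ppm1a, a protein phosphatase, had the most with 5, of folds 2.19 to 11.4, while a 3' UTR peak of the same gene had 13.8. Next came N4bp2l2, Ncapd2, Ranbp2 and Rbm25 with 4 each, of which the first pair by symbol is described. The 4 members of N4bp2l2 lay in its last intron with folds of 3.32, 3.79, 13.3 and 148. The 4 members of Ncapd2, a condensin subunit, lay in intron 4 of 31 and all inside Scarna10 (chr6:125186359-125186683, minus), a small Cajal body RNA encoded there on the same strand. They formed 2 overlapping pairs, with folds of 4.43 and 4.43, and of 2.49 and 2.50. Another exon-labelled Ncapd2 peak, not a member, overlapped the second pair with a fold of 2.32. Fragments of Ncapd2 pre-mRNA and of Scarna10 cannot be told apart in this list. The first of these peaks, printed because its bases are those of the small RNA, read as follows, with its only DRACH match in capitals.

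Ncapd2 (chr6:125186359-125186418, minus): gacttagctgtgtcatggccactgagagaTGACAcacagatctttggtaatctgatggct

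Across the class such overlaps were few. An exon of another gene was overlapped on the same strand by 7 members and on the opposite strand by 11, and a small RNA gene by 5.

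Genes of the pathway around SHP-2 were examined by list. SHP-2 relays IL-15 receptor signals towards RAS and ERK, beside the PI3K, AKT and mTOR branch. Of 35 genes of this list with a peak and an annotated retained-intron transcript, 7 had a member (20%), against 806 of 6029 such genes overall (13.4%). Ptpn11 was a member from the outset, because the class was drawn around its peak, and without it the count was 6 of 34 (17.6%). None of the 7 peaks held coding-transcript exon, as for 90.3% of all members. A fold of at least 5 was reached by 6 of them (5 of 6 without Ptpn11), against 63.1% of all members, and a p-value under 0.001 by 5 (4 of 6), against 37.4%. The median fold was 22.8, or 16.1 without Ptpn11, against 7.59. Among the kinases, Gsk3b, which AKT inhibits, had a fold of 26.6 (log10 p -34.6) in intron 8 of 11. Pdpk1, which activates AKT, had 45.5 (log10 p -9.90), in a peak that began 1 nt after the donor of intron 4 of 13. Braf, a kinase that starts the ERK cascade, had 22.8 (log10 p -4.61) in intron 16 of 21. Of the mTOR complex 1 genes, the scaffold Rptor had 7.16 (log10 p -9.34) and its activating GTPase Rheb 9.48 (log10 p -1.69, the commonest pair of values). Pik3r1, a regulatory subunit of PI3K, had 4.27 (log10 p -1.95). Ptpn11 was thus 1 of 5 genes of the list with an intronic peak at a p-value under 0.001. The pairs of values of Ptpn11, Pdpk1, Braf and Pik3r1 recurred in members of other genes, such as Acox3, Tspan3, Gdi2 and 5830428M24Rik respectively. With 7 genes the share of the list is a small count.

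The list of NK receptor and effector genes lay near the background. Of 24 such genes with a peak and a retained-intron transcript, 3 had members (12.5%), close to the 13.4% overall. Zeb2, a transcription factor of terminal NK maturation, had 3, with folds of 30.3 (log10 p -6.35) and 6.64 in intron 2 and 9.48 in intron 3. The peak of Txk, a TEC family kinase, lay outside the longest coding transcript, with a fold of 11.4 (log10 p -2.09). That of Cd27, a costimulatory receptor of the TNF receptor family, had 2.25 (log10 p -1.91). Of the 5 peaks 1 had a p-value under 0.001, and the pairs of values of all 5 recurred in members of other genes. The pair of Zeb2 in intron 3 was the commonest, with a log10 p of -1.69. In the list of m6A machinery genes 1 of 13 had a member (7.69%). This was Ythdc1, the nuclear m6A reader that influences splicing, whose peak in intron 1 of 16 had the commonest pair of values, 9.48 and -1.69.

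Splicing genes, whose products recognise and join splice sites, were described in the same way. Of 95 splicing factor genes with a peak and a retained-intron transcript, 21 had a member (22.1%), against 13.4% of all such genes, with 30 members in all and a median fold of 5.69, against 7.59 over all members. Rbm5 stood at the top, and Snrnp48, a protein of the minor spliceosome, had 2 members of folds 6.29 (log10 p -14.3) and 4.96 (log10 p -6.89). A second list held genes known for regulated or detained introns, most of them splicing regulators too, so the lists overlap. There 10 of 33 genes had a member (30.3%, against 13.4%), with 11 members. Their median fold was 2.21, against 7.59, and 2 of 11 reached 5 (18.2%), against 63.1% of all members, whereas 7 of 11 had a p-value under 0.001 (63.6%), against 37.4%. In this list the SR protein gene Srsf6 had 17.7 (log10 p -9.84) in intron 2 and 1.38 (log10 p -4.28) in a peak that held 190 nt of coding-transcript exon. Srsf2, another SR protein gene, had 1.36 (log10 p -4.85), Prpf38b, of the spliceosome, 3.65 (log10 p -11.7) and Snrnp70, a protein of the U1 snRNP, 1.27 (log10 p -3.70). Ogt, the enzyme of O-GlcNAc modification, had 2.21 (log10 p -3.48), and the SR protein kinase genes Clk1 and Clk4 had 2.09 (log10 p -3.27) and 1.43 (log10 p -2.61). The median exonic length of the 11 peaks was 151 nt (61 to 841 nt), against 270 nt over all members.

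The members were poorer in GC and richer in repeats than other peaks. Their median GC content was 43.8%, against 47.6% over all peaks and 52.8% in coding-exon peaks. Soft-masked repeats made up 30.3% of their bases, against 17.2% and 14.8%, and 36 members (3.77%) were masked over at least 90% of their length, against 1.53% of all peaks. A DRACH match on the strand of the gene was found in 94.6% of members and 92.5% of all peaks. The density was 19.4 matches per kb (95% Poisson interval 19.0 to 19.8), against 20.2 over all peaks and 19.5 in coding-exon peaks. GGAC was scarcer, at 2.55 per kb (2.41 to 2.70), against 3.58 and 4.22. Processed-transcript peaks lay between members and all peaks, with 23.6% soft-masked bases and 3.05 GGAC per kb. Since GC content differed between the sets, bands of GC were compared. Below 40% GC the members without coding-transcript exon had 1.75 GGAC per kb (1.55 to 1.97) and coding-exon peaks 2.13 (1.88 to 2.41). Between 40% and 50% the values were 2.73 (2.53 to 2.95) and 3.26 (3.03 to 3.50), and above 50% they were 3.70 (3.11 to 4.37) and 5.81 (5.54 to 6.09). GGAC was therefore lower in the members in each band, though below 40% the intervals overlapped. These intervals cover the counting of matches only and are not a test between the sets. DRACH differed less, at 20.1 and 19.0 per kb below 40%, 19.0 and 21.6 between 40% and 50%, and 18.09 and 18.03 above 50%. The 264 members with a fold of at least 5 and a p-value under 0.001 had 19.4 DRACH and 2.47 GGAC per kb, near the values of the whole class.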

How the data were processed

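The labels describe 4 libraries, 2 m6A immunoprecipitates and 2 inputs. According to the methods and the submitters' processing notes, trimmed reads were aligned by the authors to GRCm38 with HISAT2, and they called peaks with exomePeak and annotated these with ChIPseeker, which gives each peak 1 label and names UTRs before exons. The fold enrichment is a ratio deposited by the authors, and the significance a deposited score, the p-value of each peak on a log10 scale, whose adjustment is not given in the sources used here. How replicates were combined is likewise not given. There were 0 columns per sample, so depth and replicate error are unknown. Of 20751 rows, 24 repeats were dropped.

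Named transcripts were looked up in GENCODE vM21 (1 gene identifier, absent there, was taken from its transcript). The exonic part of a peak is its overlap with any exon of its gene. Bases were read from the RefSeq GRCm38.p6 genome with pyfaidx 0.9.0.4, and tables made with pandas 2.3.3. Interval and motif functions were tested on simulated data. Intervals are 95% and cover counting only. Members, gene lists and naming rules were chosen with earlier results of these data known. Named were Ptpn11, the 5 members lowest in p, the 5 highest in fold at a p-value under 0.001, the 3 genes with most members (ties cut by symbol) and up to 5 members per list lowest in p. Pik3r1, Rheb, Ogt, Clk1 and Clk4 were named after their values were seen. Some planned results, among them a marker list, are not reported here.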

Additional observations from a re-analysis of the deposited data

How the results depend on the processing

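Of 26 alternatives for 9 results, 11 stayed within the limits set and 15 moved. At a p-value under 0.001 there were 358 members, of which 73.7% had a fold of at least 5 and 86.6% held no coding-transcript exon, and the median fold was 19.0, also for members without coding-transcript exon. The share past the fold threshold was 90.2% at 2 and 36.1% at 10, and the share past the p-value threshold was 61.5% at 0.01. Of members with a fold under 5, 84.4% held no coding-transcript exon. GGAC in place of DRACH gave 2.55 per kb. Counting peaks within 100 nt of an intron end raised the share near a splice site to 34.1%. With the member and the other peak of lowest p-value in each gene, the within-gene ratio was 2.47. Chosen after seeing the data, members of at most 200 exonic nt had a ratio of 1.23 and, without coding-transcript exon, a median fold of 3.79, and without the commonest pair of values that median was 6.77. Other thresholds, another motif and a wider splice window count another quantity by construction, and for the other moves the cause was not tested. No paired analysis was possible because the list gives no value per sample, and for the same reason no replicate could be left out.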

Other observations

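Further members with a fold of at least 100, named after their values were seen, lay in genes of several kinds. The adhesion molecule gene Pecam1 had 235 (log10 p -104) in its last intron, against 4.43 for its strongest other peak. The methyltransferase gene Thumpd3 had 145 (log10 p -130) in intron 4 of 9, against 2.84. Kcnn4, a calcium-activated potassium channel of lymphocytes, had 201 (log10 p -53.9), against 2.11, in a peak outside its longest coding transcript. Ptpn18, a tyrosine phosphatase like SHP-2, had 140 (log10 p -131) in intron 5 of 14, against 5.06. Smc6, of the SMC5 and SMC6 chromosome complex, had 167 (log10 p -52.0), against 19.0, and its peak held 15 nt of coding-transcript exon. Psmd9, a proteasome assembly factor, had 112 (log10 p -29.7) beside another peak of 91.0, so there the intron did not stand out within the gene.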
